A study of Mus musculus with 6 samples.

Results

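Transcripts of 8 scavenger and endocytic receptors of tissue macrophages, Mrc1, Cd163, Stab1, Msr1, Marco, Cd36, Lyve1 and Folr2, were examined in tumor-associated macrophages (TAMs). The members were chosen by name: each is the row of the gene expression table whose Ensembl mouse identifier maps to that symbol. All 8 were found among the 56980 genes of the table, and all 8 were among the 14776 genes that reached a TPM of 1 in at least 3 libraries and were tested. TPM, a transcript abundance unit, scales each library to a fixed total and corrects for transcript length, so levels can be compared between genes as well as between libraries.

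ID8 cells, a mouse ovarian epithelial cancer line, were injected into the peritoneal cavity of female mice bought at 6 to 8 weeks of age, and tumors were taken 2 months later. The 3 WT libraries come from C57BL/6 mice and the 3 C5aR-/- libraries from mice on the same background that lack the receptor for complement C5a in the whole animal and not only in macrophages. All 6 libraries carry the same tumor, and no tumor-free or otherwise untreated macrophages were analysed here. Live CD45+CD11b+Ly6G-F4/80+ cells were sorted, and of the 8 receptors none served as a sort marker. The comparison asks whether macrophages that lack C5aR carry different amounts of these transcripts. The study's legends count more mice per group than the 3 libraries per group analysed here, and the labels do not say whether a library is 1 mouse or a pool, so the p-values measure only the spread between these samples, which may be technical.

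Scavenger receptors are surface proteins with which macrophages bind and take up modified lipoproteins, dying cells, microbes, haemoglobin complexes and matrix fragments. They do not form 1 protein family and are grouped by what they bind. In tissues, several of them mark resident macrophages, and Mrc1 (CD206) and Cd163 are widely used as markers of alternatively activated, tumor-promoting macrophages. Complement C5a, acting through C5aR, is a chemoattractant and activator of myeloid cells.

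The deleted gene followed the labels. C5ar1, which encodes C5aR, had 86.5, 37.3 and 16.2 TPM in WT TAMs 1, 2 and 3 and 0.38, 0.11 and 0.05 TPM in C5aR-/- TAMs 1, 2 and 3, a log2 difference of -5.04 (SE 0.56, n = 3 per group, limma, Benjamini-Hochberg adjusted p = 0.0666). The F4/80 gene Adgre1 had 114, 45.8 and 25.4 TPM in the WT libraries and 91.1, 40.1 and 27.9 TPM in the C5aR-/- libraries. The sum of 16 macrophage identity genes ran from 3091 to 10231 TPM in WT and from 3095 to 10312 TPM in C5aR-/- TAMs, so both groups held libraries rich and poor in macrophage transcripts. Gene by gene, 13 of these 16 were higher and 3 lower in C5aR-/- TAMs (median of the log2 differences 0.469). Adgre1 was among the lower ones, at -0.125. The keratin Krt8 stood at 455 to 465 TPM in WT and 624 to 758 TPM in C5aR-/- libraries, and Krt19 at 831 to 1102 and 433 to 1001 TPM, so the sorted material also held keratin transcripts. Krt18 stood at 457 to 697 TPM over the 6 libraries, and Krt7 reached 16.05 TPM. The listed epithelial genes other than keratins were low, with Muc1 at 6.93, Epcam at 6.33, Cdh1 at 5.56 and Cldn7 at 0.37 TPM at most. Folr1, an epithelial gene outside this list, stood at 105 to 299 TPM. Of the mesothelial genes, Wt1 stood at 338 to 451 TPM in WT and 331 to 395 TPM in C5aR-/- libraries. Upk3b was lower in C5aR-/- libraries, at 291 to 380 against 48.8 to 206 TPM. Msln was higher there, at 135 to 180 against 268 to 288 TPM. Which cells carried the keratins was not tested. Of 7 epithelial genes tested, 3 were higher and 4 lower in C5aR-/- TAMs (median of the log2 differences -0.094). In bulk RNA, fewer cells of a type and less RNA per cell cannot be told apart.

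On GRCm38, Mrc1 (ENSMUSG00000026712) lies at chr2:14229392-14332057 on the + strand with 30 exons in its longest coding transcript, and Cd163 (ENSMUSG00000008845) at chr6:124304656-124330527 on the + strand with 17 exons. Stab1 (ENSMUSG00000042286) spans chr14:31139013-31168641 on the - strand with 69 exons. Msr1 (ENSMUSG00000025044) spans chr8:39581685-39642673, Marco (ENSMUSG00000026390) chr1:120474538-120505024 and Cd36 (ENSMUSG00000002944) chr5:17781690-17888801, all on the - strand. Lyve1 (ENSMUSG00000030787) at chr7:110850607-110863239 and Folr2 (ENSMUSG00000032725) at chr7:101839988-101857194 are on the - strand of the same chromosome. The longest coding transcripts run from 251 codons for Folr2 to 2571 for Stab1. Stab1 overlaps Nt5dc2 on the opposite strand, which reached 19.8 TPM, and Folr2 overlaps an antisense gene and a pseudogene at no more than 2.38 TPM. Whether the counting used strand is not given in the sources used here, so reads of these overlapping genes may be mixed.

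Promoter windows from RefSeq (GRCm38.p6, 250 bases before to 50 after a gene's start) matched 6 of the 8 members, in 7 windows. Each was searched on both strands for TGCTGA (the core of MAF sites), GAGGAA (a core of PU.1 sites), TGANTCA (AP-1) and TATAAA (the core promoter box of that name), since MAF, PU.1 and AP-1 factors are known regulators of macrophage genes. The choice of the 4 windows below rests on the measured values. Mrc1 and Cd163 are shown because their ratios to some other members did not overlap between genotypes. This held in 4 of 7 pairs for Mrc1 and in 3 of 7 for Cd163. Stab1 and Folr2 are receptors they were compared with. Capitals mark matches on either strand.
Mrc1, chr2:14229164-14229463, + strand: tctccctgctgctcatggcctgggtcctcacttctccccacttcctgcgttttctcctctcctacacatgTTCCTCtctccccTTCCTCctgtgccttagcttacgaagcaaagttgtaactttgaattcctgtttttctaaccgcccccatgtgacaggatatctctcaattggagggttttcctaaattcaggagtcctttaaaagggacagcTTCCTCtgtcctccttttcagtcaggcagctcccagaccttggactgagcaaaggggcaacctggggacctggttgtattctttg
Cd163, chr6:124304401-124304700, + strand: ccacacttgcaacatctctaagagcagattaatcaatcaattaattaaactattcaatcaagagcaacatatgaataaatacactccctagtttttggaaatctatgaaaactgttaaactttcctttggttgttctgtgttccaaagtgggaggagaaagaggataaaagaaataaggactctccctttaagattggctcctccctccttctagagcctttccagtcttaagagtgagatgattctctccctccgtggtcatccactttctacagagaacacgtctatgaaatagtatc
Stab1, chr14:31168592-31168891, - strand: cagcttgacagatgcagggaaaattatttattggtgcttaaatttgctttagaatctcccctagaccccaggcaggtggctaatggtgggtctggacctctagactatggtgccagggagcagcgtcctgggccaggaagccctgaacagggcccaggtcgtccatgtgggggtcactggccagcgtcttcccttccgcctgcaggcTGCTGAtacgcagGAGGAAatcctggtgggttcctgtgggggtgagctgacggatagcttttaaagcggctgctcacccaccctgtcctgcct
Folr2, inner start, chr7:101845282-101845581, - strand: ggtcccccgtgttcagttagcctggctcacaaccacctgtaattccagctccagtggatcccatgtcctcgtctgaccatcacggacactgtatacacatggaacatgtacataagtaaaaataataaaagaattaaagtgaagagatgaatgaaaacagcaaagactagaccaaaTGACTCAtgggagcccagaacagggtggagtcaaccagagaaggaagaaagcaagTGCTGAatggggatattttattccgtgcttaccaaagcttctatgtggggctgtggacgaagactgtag

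The Mrc1 window held 3 matches to GAGGAA, all as TTCCTC on the printed strand, and the Cd163 window held none of the 4 motifs. The Stab1 window held 1 TGCTGA and 1 GAGGAA match, and the Folr2 window 1 TGCTGA and 1 TGANTCA match. Over the 7 member windows, TGCTGA was in 4, GAGGAA in 3, TGANTCA in 1 and TATAAA in 0. Among all 32851 mouse windows of that length the shares were 19.5%, 28.3%, 7.81% and 13.6%. A match is only a run of letters, and binding was not measured.

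Transcripts of all 8 receptors were present in both genotypes, and for none of them did the difference between WT and C5aR-/- TAMs pass limma's test. Of the 8 members, 0 passed limma's test with Benjamini-Hochberg adjusted p below 0.05 together with a 2-fold or larger change, as did 0% of all tested genes, and the members' adjusted p ran from 0.518 for Mrc1 to 0.968 for Cd36. At the unadjusted threshold (p under 0.05 and the same fold) 0 of 8 members passed, against 4.96% of all tested genes. At an unadjusted p under 0.05 with any fold change, 0 of 8 members and 2133 of all tested genes were found. Of the 8 members, 0 had groups that did not overlap, against 21.3% of tested genes, and without C5aR-/- library 3 the number was 3 (Mrc1, Cd163 and Marco, all higher in C5aR-/- TAMs), beside 4567 of the 14776 tested genes. For Marco the gap was only 132.21 TPM in C5aR-/- library 2 against 132.12 TPM in WT library 3. On the log2(TPM + 1) scale 6 members had higher and 2 lower group means in C5aR-/- TAMs, with a median difference of 0.38 against -0.048 for all tested genes, of which 44.5% were higher. The 16 macrophage identity genes had a median difference of 0.469, with 13 higher and 3 lower, so the members were not shifted more than these.

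**Figure D1:**
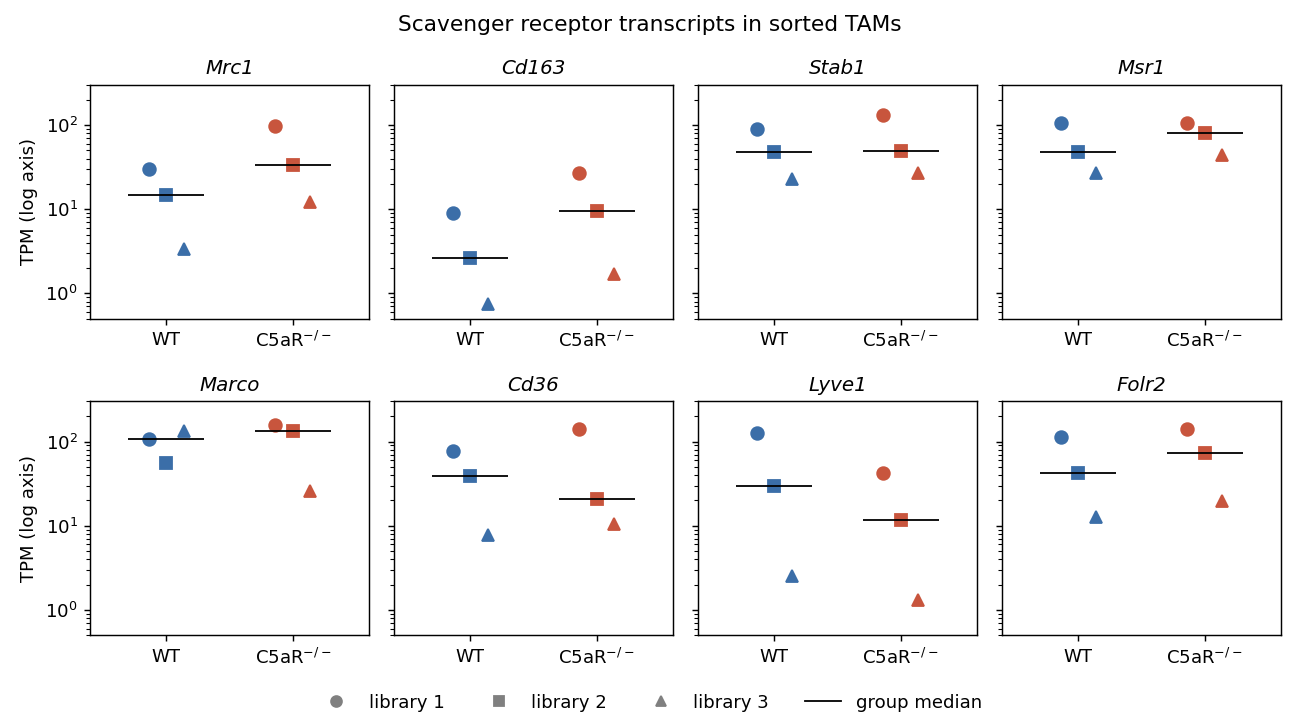
TPM of the 8 receptors in each of the 6 libraries on a log axis, with WT and C5aR-/- TAMs in separate colours, a marker shape for each library number and a line at each group median. Every receptor has overlapping groups, and Mrc1 has its highest library (97.9 TPM) and its lowest (3.34 TPM) in different genotypes.

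Mrc1, the mannose receptor CD206, binds mannose-ending glycoproteins and collagen fragments. It had 30.3, 14.9 and 3.34 TPM in WT TAMs 1, 2 and 3 and 97.9, 33.2 and 12.3 TPM in C5aR-/- TAMs 1, 2 and 3. The C5aR-/- library 1 stood far above the others, yet C5aR-/- library 3 lay below 2 WT libraries, so the groups overlapped. The means were 16.2 ± 13.5 and 47.8 ± 44.6 TPM (SD, n = 3 each), a log2 difference of 1.46 (SE 0.92, 95% interval -0.74 to 3.66, limma adjusted p = 0.518). Cd163, the haptoglobin-haemoglobin receptor, was the least abundant member in both genotypes. It had 9.14, 2.62 and 0.75 TPM in WT and 27.2, 9.42 and 1.72 TPM in C5aR-/- TAMs. Library 1 of each genotype was the highest and library 3 the lowest, and the groups overlapped. The log2 difference was 1.21 (SE 0.96, 95% interval -1.08 to 3.51, limma adjusted p = 0.608).

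Msr1, the class A receptor SR-A that binds modified low-density lipoprotein, had 105, 47.4 and 27.2 TPM in WT and 105, 81.0 and 43.8 TPM in C5aR-/- TAMs. It was the steadiest member within groups, with overlapping values and a log2 difference of 0.48 (SE 0.53, 95% interval -0.78 to 1.74, limma adjusted p = 0.720). Marco, a class A receptor with a collagenous domain that binds bacteria and particles, was the most abundant member by group mean in both genotypes. It had 108, 55.5 and 132 TPM in WT and 156, 132 and 26.0 TPM in C5aR-/- TAMs. Marco was the only member that was highest in WT library 3, the library where the other 7 members were lowest among WT TAMs. Its means were 98.6 ± 39.2 and 105 ± 69.2 TPM, while the log2 difference was -0.18 (SE 0.70, limma adjusted p = 0.929), so even the sign of its difference rested on the scale. Cd36, the class B receptor for long-chain fatty acids and oxidised lipoprotein, had 77.2, 38.5 and 7.72 TPM in WT and 140, 20.8 and 10.6 TPM in C5aR-/- TAMs. Its groups overlapped throughout, with a log2 difference of 0.13 (SE 1.11, 95% interval -2.52 to 2.79).

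Stab1 (stabilin-1), a receptor for secreted matrix protein SPARC and modified lipoprotein, had 89.1, 47.3 and 23.0 TPM in WT and 132, 49.7 and 26.8 TPM in C5aR-/- TAMs. C5aR-/- library 1 was the highest of the 6, the groups overlapped, and the log2 difference was 0.28 (SE 0.67, limma adjusted p = 0.880). Folr2, the folate receptor beta that marks resident macrophages, had 112, 42.1 and 12.7 TPM in WT and 142, 72.3 and 19.5 TPM in C5aR-/- TAMs. The groups overlapped, with a log2 difference of 0.57 (SE 0.94, 95% interval -1.67 to 2.80). Lyve1, a hyaluronan receptor of resident macrophages and lymphatic endothelium, had 126, 29.3 and 2.55 TPM in WT and 42.0, 11.7 and 1.32 TPM in C5aR-/- TAMs. It was the only member with a lower mean TPM in C5aR-/- TAMs (18.3 ± 21.1 against 52.8 ± 65.2 TPM), yet its log2 difference of -1.15 had an SE of 1.5 and a 95% interval from -4.73 to 2.43 (limma adjusted p = 0.765). Exact two-sided permutation tests on the 6 log2(TPM + 1) values gave p = 0.4 for Mrc1 and for Cd163 and larger values for the other 6 members, where 3 against 3 libraries cannot go below 0.1.

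**Figure D2:**
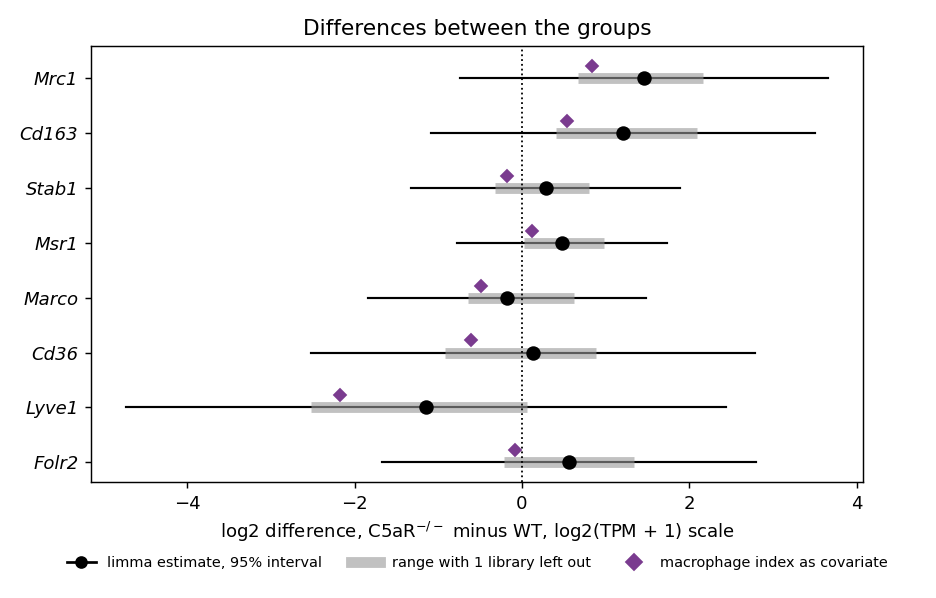
log2 difference (C5aR-/- minus WT, log2(TPM + 1)) of each receptor as a dot with its 95% limma interval as a thin line, the range with 1 library left out as a grey bar, and the estimate with the macrophage mean as a covariate as a diamond. Every interval crosses 0, and that of Lyve1 is the widest, from -4.73 to 2.43.

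The direction of 5 members depended on a single library. Without WT library 1, the log2 difference of Lyve1 was 0.058. Without WT library 3 those of Stab1, Cd36 and Folr2 were -0.20, -0.76 and -0.22 and that of Marco was 0.075; without C5aR-/- library 1 those of Stab1, Cd36 and Folr2 were -0.33, -0.92 and -0.063, and without C5aR-/- library 3 that of Marco was 0.63. Mrc1, Cd163 and Msr1 stayed higher in C5aR-/- TAMs whichever library was left out, at 0.67 to 2.17, 0.41 to 2.10 and 0.027 to 0.99.

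Within a genotype the receptors varied far more than most genes. The median within-group SD on the log2 scale was 1.46 for the members and 0.284 for all tested genes, and all 8 members were above the 90th percentile of 0.724. Lyve1 had the highest SD, 2.37, a 49.6-fold range among WT libraries, and Msr1 the lowest, 0.818. In WT TAMs library 1 was higher than 2, and 2 higher than 3, for 7 of 8 members (all but Marco) and 15.5% of tested genes, and in C5aR-/- TAMs for 8 of 8 members and 28.6% of tested genes. In both genotypes 7 of 8 members and 6.83% of tested genes had this order. Adgre1 and Csf1r, the receptor for macrophage colony-stimulating factor, had it too. The mean log2(TPM + 1) of the 16 identity genes was 7.64, 6.57 and 6.28 in WT and 7.90, 7.16 and 6.43 in C5aR-/- libraries, in the same order of libraries. With this mean as a covariate the log2 differences were 0.83 for Mrc1 (limma adjusted p = 0.291), 0.54 for Cd163 (0.342) and -2.17 for Lyve1 (0.146), and those of Stab1, Cd36 and Folr2 turned negative (-0.18, -0.60 and -0.084).

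**Figure D3:**
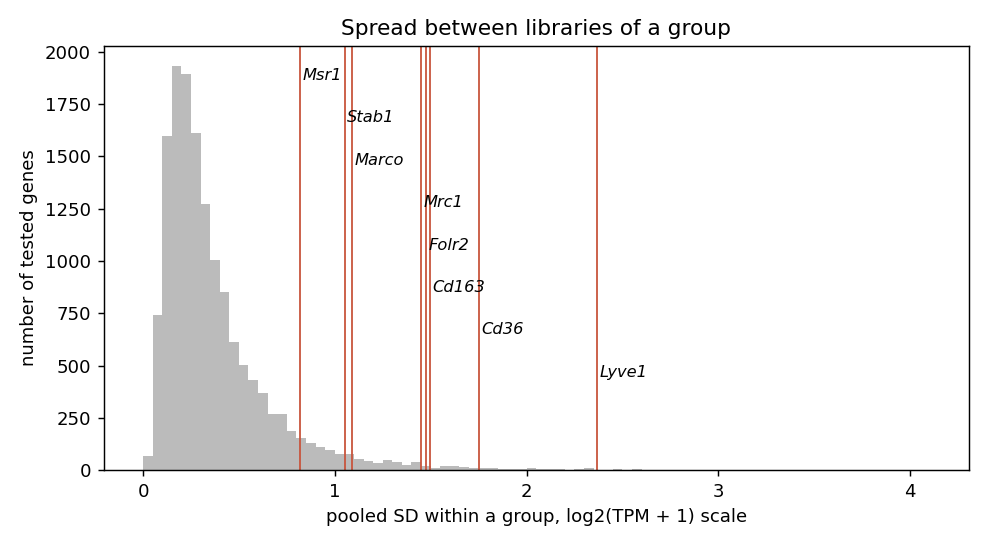
Within-group SD of log2(TPM + 1) over all 14776 tested genes as a histogram, with a vertical line at each of the 8 receptors. All 8 lie right of the 90th percentile (0.724), from Msr1 (0.818) to Lyve1 (2.37).

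Levels relative to each other are free of a common scaling of a library. The summed TPM of the 8 members was 658, 278 and 209 in WT and 844, 410 and 142 in C5aR-/- TAMs. Mrc1 made up 4.61%, 5.36% and 1.6% of it in WT and 11.6%, 8.10% and 8.65% in C5aR-/- TAMs, the only member whose shares did not overlap. No background over other genes was computed for shares, and they were not tested. Marco took 63.1% of the sum in WT library 3, against 16.4% to 32.2% in the other 5 libraries, which lowers the shares of the other members in that library. Lyve1 had 19.2%, 10.6% and 1.22% in WT and 4.97%, 2.84% and 0.929% in C5aR-/- TAMs.

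**Figure D4:**
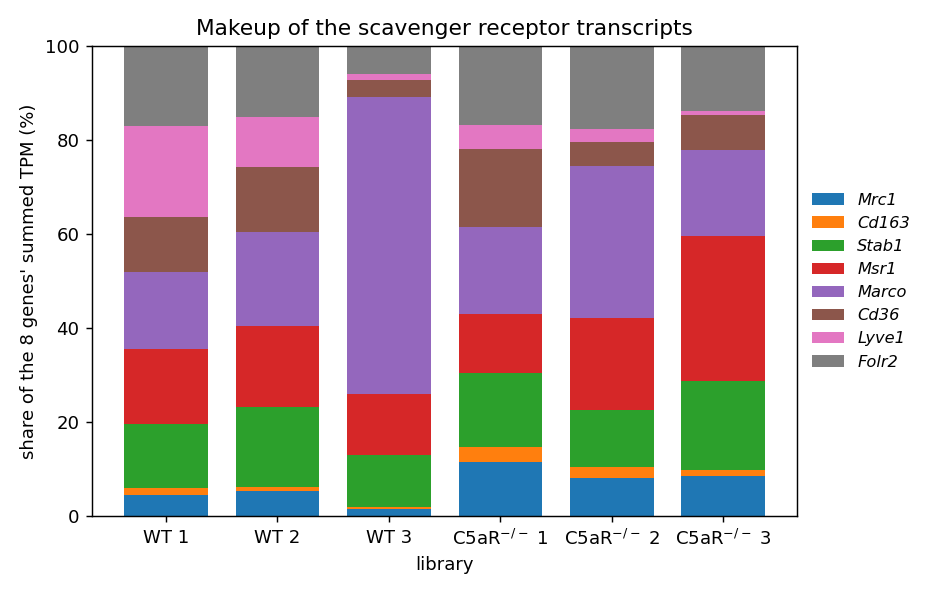
Share (percent) of each receptor in the summed TPM of the 8 members, by library. Marco fills 63.1% of WT TAM 3, and Mrc1 takes 8.10% to 11.6% in C5aR-/- and 1.6% to 5.36% in WT libraries.

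Of the 28 pairs of members, 7 had TPM ratios that did not overlap between genotypes, and all 7 had Mrc1 or Cd163 on top. The pairs were compared after the values had been seen, with exact permutation p = 0.1 each, the smallest that 3 against 3 libraries allow, and a Benjamini-Hochberg adjusted p of 0.4 over the 28 by the same exact tests. Mrc1 per Lyve1 was 0.240, 0.508 and 1.31 in WT and 2.33, 2.85 and 9.32 in C5aR-/- TAMs, and Cd163 per Lyve1 0.0723, 0.0893 and 0.294 against 0.649, 0.809 and 1.30. Ratios to Lyve1 did not overlap for 0.245% of the 14297 genes above 0 in every library. Among listed macrophage and haem genes, F13a1, Pf4 and Hmox1 per Lyve1 were apart as well, higher in C5aR-/- TAMs. Cbr2 and Fcna per Lyve1 overlapped. Groups apart relative to Lyve1 were therefore not particular to Mrc1 and Cd163. Mrc1 per Folr2 was 0.271, 0.354 and 0.264 in WT and 0.688, 0.459 and 0.629 in C5aR-/- TAMs, and Cd163 per Folr2 0.0815, 0.0622 and 0.0592 against 0.191, 0.130 and 0.0880, where 2.04% of genes did not overlap. Relative to Cd36, where 0.797% of genes did not overlap, Mrc1 was at 0.393, 0.386 and 0.433 in WT and 0.697, 1.6 and 1.16 in C5aR-/- TAMs and Cd163 at 0.118, 0.0680 and 0.0972 against 0.194, 0.454 and 0.163. Relative to Stab1 only Mrc1 did not overlap, with 0.340, 0.315 and 0.145 against 0.740, 0.669 and 0.458, where 3.16% of genes did not. Mrc1 and Cd163 kept no fixed ratio to each other: Mrc1 per Cd163 was 3.32, 5.68 and 4.45 in WT and 3.60, 3.53 and 7.15 in C5aR-/- TAMs, with overlapping groups.

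**Figure D5:**
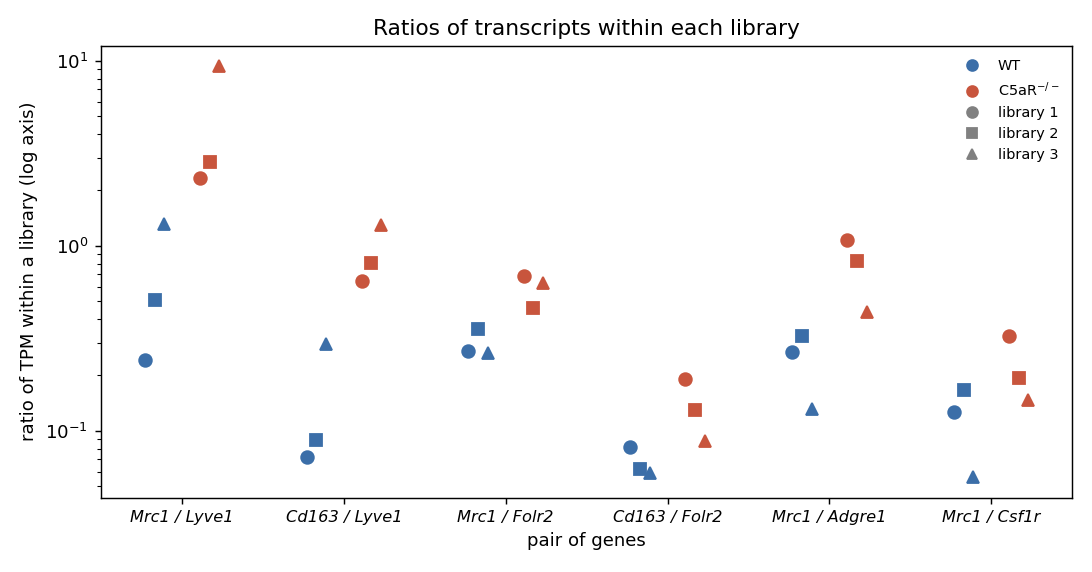
TPM ratios of Mrc1 and Cd163 to Lyve1 and Folr2, and of Mrc1 to the macrophage genes Adgre1 and Csf1r, in each library, log axis, WT and C5aR-/- TAMs in separate colours. Mrc1 per Lyve1 runs from 0.240 to 1.31 in WT and from 2.33 to 9.32 in C5aR-/- libraries.

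Per transcript of the sort marker Adgre1, Mrc1 was at 0.265, 0.325 and 0.132 in WT and 1.07, 0.829 and 0.440 in C5aR-/- TAMs, and Msr1 at 0.922, 1.04 and 1.07 against 1.16, 2.02 and 1.57. These 2 of 8 members did not overlap (exact permutation p = 0.1 each), against 2.08% of genes. Among the macrophage identity genes, Csf1r, Cd68 and Mertk per Adgre1 were also apart and higher in C5aR-/- TAMs, whereas C1qa and Lyz2 overlapped. Groups apart on this measure were therefore not particular to Mrc1 and Msr1. Per Csf1r transcript the Mrc1 ratios were 0.127, 0.166 and 0.0562 in WT and 0.325, 0.193 and 0.147 in C5aR-/- TAMs and overlapped, and 0 of 8 members did not overlap, against 4.34% of genes. The result for Mrc1 thus depended on which macrophage gene it was set against.

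Among 26 other scavenger receptors, 22 were tested, with 11 higher and 11 lower and a median log2 difference of 0.014; 0 passed the adjusted threshold, and 1 higher and 3 lower passed the unadjusted one. Olr1, the lectin-like receptor for oxidised lipoprotein, had 25.0, 11.99 and 6.66 TPM in WT and 3.80, 3.67 and 3.83 TPM in C5aR-/- TAMs (log2 difference -1.53, SE 0.43, limma adjusted p = 0.209), with groups apart. Cd163l1, a relative of Cd163, had 2.90, 2.15 and 5.67 TPM in WT and 1.96, 0.28 and 0.10 TPM in C5aR-/- TAMs, and Timd4, a phosphatidylserine receptor of resident macrophages, 28.4, 13.5 and 13.2 against 11.03, 7.18 and 1.77 TPM. Their log2 differences were -1.43 and -1.49 (limma adjusted p = 0.258 and 0.318), and both fell short of the unadjusted threshold when some single libraries were left out. Clec7a (dectin-1), a beta-glucan receptor, had 103, 62.3 and 75.4 TPM in WT and 288, 174 and 89.0 TPM in C5aR-/- TAMs (log2 difference 1.06, SE 0.42, limma adjusted p = 0.328), and its groups overlapped. The most abundant of the list, Lrp1 and Cd68, a lipoprotein receptor and a lysosomal glycoprotein, had 256 to 348 and 73.5 to 211 TPM in WT and 209 to 252 and 115 to 422 TPM in C5aR-/- TAMs.

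Of 27 other resident-macrophage genes, 22 were tested, with 14 higher and 8 lower; 2 higher and 1 lower (Timd4) passed the unadjusted and 0 the adjusted threshold. Slc40a1, the iron exporter ferroportin, had 2.71, 1.93 and 1.5 TPM in WT and 67.4, 12.6 and 3.91 TPM in C5aR-/- TAMs (log2 difference 2.47, SE 0.88, limma adjusted p = 0.290). Hpgd, a prostaglandin-degrading enzyme, had 2.98, 1.22 and 1.46 against 7.67, 6.18 and 2.27 TPM (1.08, limma adjusted p = 0.331). Slc40a1 had groups that did not overlap and Hpgd had overlapping ones. Of 32 genes that handle the receptors' ligands and lipid, 31 were tested, with 21 higher and 10 lower, and 1 higher and 2 lower passed the unadjusted threshold. Hp, which encodes haptoglobin, carried to Cd163 with haemoglobin, had 81.9, 83.6 and 209 TPM in WT and 18.6, 48.8 and 8.95 TPM in C5aR-/- TAMs (log2 difference -2.41, SE 0.63, limma adjusted p = 0.186). Soat1, which esterifies cholesterol, had 255, 368 and 251 against 130, 153 and 123 TPM (-1.08, SE 0.19, limma adjusted p = 0.0948), and neither gene's groups overlapped; without WT library 2 the Soat1 difference was -0.90, short of the 2-fold threshold. Hmox1, the haem oxygenase that acts after Cd163 uptake, had 436, 274 and 50.7 TPM in WT and 1235, 518 and 152 TPM in C5aR-/- TAMs (log2 difference 1.33, SE 0.99, limma adjusted p = 0.588). Of 27 transcription factors, all tested, 17 were higher and 10 lower, and only Pparg, the lipid-sensing receptor that drives Cd36, passed the unadjusted threshold, with 2.02, 2.54 and 1.18 TPM in WT and 5, 4.81 and 13.4 TPM in C5aR-/- TAMs (1.48, SE 0.41, limma adjusted p = 0.207).

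Markers of other cells varied between libraries as well. Large peritoneal macrophage genes summed to 1664, 516 and 336 TPM in WT and 275, 309 and 174 TPM in C5aR-/- TAMs, with 4 of 12 genes past the unadjusted threshold, all lower, and 0 past the adjusted one. Neutrophil and mast cell genes summed to 1058, 2351 and 727 TPM in WT and 210, 429 and 108 TPM in C5aR-/- TAMs, with 1 higher and 8 lower of 11 tested past the unadjusted threshold. Lyve1 also marks lymphatic endothelium, and the endothelial list summed to 138, 141 and 189 TPM in WT and 176, 133 and 95.4 TPM in C5aR-/- TAMs. Of its 9 tested genes 1 passed the unadjusted threshold, higher in C5aR-/- TAMs, and 6 of the 16 listed genes stayed under 1 TPM in all libraries, among them Cldn5, listed at 0, Cdh5, at 0.21 TPM at most, and Prox1, at 0.04 TPM at most. Other genes of the list were well detected. Flt4, the receptor VEGFR3 of lymphatic endothelium, had 17.02, 20.6 and 41.4 TPM in WT and 38.8, 7.90 and 3.53 TPM in C5aR-/- TAMs, Esam 95.2 to 125 and 62.8 to 96.6 TPM, and Pecam1 7.04 to 10.4 and 6.84 to 12.5 TPM. In WT TAMs Flt4 was highest in library 3, where Lyve1 was lowest. In C5aR-/- TAMs both genes were highest in library 1 and lowest in library 3. The adipocyte marker Adipoq, relevant to Cd36, reached 0.07 TPM at most. Of the monocyte genes 3 of 10 and of the fibroblast and mesothelial genes 4 of 11 tested passed the unadjusted threshold, all lower, against 0 of 9 dendritic cell, 0 of 7 epithelial and 0 of 12 lymphocyte genes tested. The part of the endothelial, peritoneal and neutrophil transcripts in the receptor levels was not tested.

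As a description over the 6 libraries, the protein-coding genes with the most similar log2(TPM + 1) profile to Mrc1 were Hmox1, Irs2 and Fcgr2b (Pearson r = 0.990, 0.989 and 0.989), and to Cd163 Ctsb, Cd300a and Tbxas1 (0.996, 0.994 and 0.993). Cd36 was closest to Slc43a2 (0.996) and Pf4 (0.990), Lyve1 to Alox5ap (0.993) and Cbr2 (0.992), Folr2 and Msr1 both to Zeb2 (0.994 and 0.986), Stab1 to Arid5a (0.997) and Marco to Prelid2 (0.989). The points of each correlation are the same 6 libraries, which differ in their macrophage transcripts.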

How the data were processed

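RNA of sorted TAMs was sequenced as poly(A) libraries. For read trimming, alignment and transcript estimation the authors used fastp, HISAT2 and StringTie; the submitters' processing notes also list RSEM and DESeq2 and name build mm10 (GRCm38). The deposited table holds TPM per gene for the 6 libraries, each scaled to the same total, plus the authors' 2 group means, which were not used. The methods name FPKM, the deposited values are TPM. TPM keeps no depth, so depth is unknown, no counting interval was given, and an entry of 0 may stand for an estimation that failed.

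Symbols were taken from GENCODE M21. Values were tested with limma 3.58.1 (R 4.3.3, eBayes with trend) on log2(TPM + 1), for genes reaching 1 TPM in 3 or more libraries, and p-values were Benjamini-Hochberg adjusted over all tested genes. Fold changes on this scale understate the change of low genes. Shares, ratios and exact permutation tests used Python 3.11.15, pandas 2.3.3, numpy 2.4.6 and scipy 1.17.1, with matplotlib 3.10.9 for plots. The fit was tested on simulated data. Named genes were the 8 members, C5ar1, Adgre1 and Csf1r, and, in the gene lists, the 2 most abundant and 2 most different genes and those past the unadjusted threshold, of which a part is printed, plus the 3 genes most like each member. Members and lists were chosen with earlier results of these data known. The labels do not say whether library numbers pair the samples, and the primary fit did not pair them. Alternatives were pseudocount, filter, scaling, replicate block, array weights, macrophage covariate and leaving out each library.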

Additional observations from a re-analysis of the deposited data

How the results depend on the processing

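Of 322 values under the alternatives, 282 kept their direction and side of the threshold (counts of genes within 1.5 times), 14 reversed, 11 passed the adjusted threshold newly and 15 counts moved. The 322 include C5ar1 and list genes named because they passed the unadjusted threshold, whose directions were likely to hold. All 14 reversals were in members, namely Stab1, Marco, Cd36, Lyve1 and Folr2. The cause of each was not tested. With the macrophage mean as a covariate, Stab1, Cd36 and Folr2 had log2 differences of -0.18, -0.60 and -0.084, and C5ar1 one of -5.34. In that fit 33 genes passed the adjusted threshold instead of 0. The unadjusted one was passed by 1 member (Lyve1) and by 967 of the 14776 tested genes. With array weights, which did not converge, adjusted calls numbered 1400 and unadjusted calls 1410 genes (733 in the primary analysis). The weight of C5aR-/- library 2 was 38.6, against 0.173 and 0.240 for C5aR-/- libraries 1 and 3. The p-values of this fit thus say little of the spread between C5aR-/- libraries. In it 2 members passed (Mrc1 1.19, limma adjusted p = 0.0244, and Cd163 1.45, limma adjusted p = 0.0124). C5ar1 was at -5.13, and Marco and Cd36 turned to 0.96 and -0.74. A filter of 5 TPM left 475 genes past the unadjusted threshold, and eBayes without trend 2 past the adjusted one.

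Over fits that left out 1 library, adjusted calls ran from 0 to 356 genes, unadjusted calls from 567 to 1266 and genes with groups apart from 3645 to 6209, the highest each time without C5aR-/- library 1. Members with groups apart ran from 0 to 3, the 3 without C5aR-/- library 3. Members past the unadjusted threshold ran from 0 to 1 (Cd163, 2.10, without C5aR-/- library 3, where 660 of all tested genes passed). The log2 difference ran from -5.63 to -4.45 for C5ar1, from -0.33 to 0.80 for Stab1, from -0.64 to 0.63 for Marco, from -0.92 to 0.89 for Cd36, from -2.52 to 0.058 for Lyve1 and from -0.22 to 1.34 for Folr2. For Timd4 it ran from -1.94 to -0.88, for Cd163l1 from -1.87 to -1.12, for Clec7a from 0.66 to 1.5, for Slc40a1 from 1.44 to 3.35, for Hpgd from 0.80 to 1.5 and for Soat1 from -1.18 to -0.90, with the unadjusted threshold missed in some fits.

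The libraries share only a number: same-numbered libraries had correlations of 0.186, -0.0112 and 0.272 between their deviations. With the number as a replicate block, 3 members passed the unadjusted threshold, Mrc1, Cd163 and Lyve1 (limma adjusted p = 0.109, 0.183 and 0.172). In that fit 811 of the 14776 tested genes passed it too, and 0 genes the adjusted one.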

Other observations

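Folr1, the folate receptor alpha of epithelia, stood beside its macrophage counterpart Folr2 in all libraries, at 121, 115 and 136 TPM in WT and 299, 229 and 105 TPM in C5aR-/- TAMs. It did not share the library order of Folr2 in WT TAMs, where library 3 was the highest. Stab2, the stabilin of sinusoidal endothelium and relative of Stab1, had 0.02, 0 and 0.02 TPM in WT and 1.69, 3.84 and 0.89 TPM in C5aR-/- TAMs; it was under the filter on low values and was not tested. Cbr2 and Pf4, genes of resident macrophages that resembled Lyve1 and Cd36 across libraries, had 141, 50.5 and 3.65 and 147, 60.9 and 8.51 TPM in WT and 69.3, 15.8 and 3.51 and 280, 44.3 and 11.1 TPM in C5aR-/- TAMs.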
